A study of Mus musculus with 6 samples.

Results

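The mitochondrial matrix chaperones are the proteins that fold what the organelle imports and makes. They were followed here through 6 transcripts, those of Hspd1, Hspe1, Hspa9, Dnaja3, Grpel1 and Trap1, out of 39142 nuclear genes in the count tables, and each was found by its mouse Ensembl identifier. All 6 passed the low-count filter, which 2351 nuclear genes passed. RNA of crude heart mitochondria was sequenced in 3 libraries of Polrmt knockout mice (L/L, cre; genotype Polrmt -/-) and in 3 libraries of control mice (L/L; genotype Polrmt +/+). All mice were C57BL/6N, aged 3 to 4 weeks. The labels number the libraries as replicates without saying that each is a separate animal, so that p-values measure the spread between these libraries. Both groups carried Polrmt alleles with loxP sites around exon 3, which in the knockouts was removed by cre driven by the muscle creatine kinase promoter. This promoter is active in heart and skeletal muscle cells, so that the other cells of the heart keep the gene. Polrmt encodes the mitochondrial RNA polymerase. It transcribes the mitochondrial genome and makes primers for its replication, and the study is about the switch between these tasks.

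Matrix chaperones work as a line. Hspa9, the Hsp70 of the matrix (mortalin), pulls precursor proteins through the inner membrane and holds unfolded chains. The J-protein Dnaja3 stimulates its ATPase, and Grpel1 exchanges its nucleotide. Hspd1 (HSP60) forms the barrel-shaped chaperonin in which many matrix proteins fold, and Hspe1 (HSP10) is its lid. Trap1 is the Hsp90 of mitochondria. When unfolded proteins accumulate in the matrix, cells are known to raise transcripts of several of these chaperones together with matrix proteases.

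The genes of the chaperonin and of its lid lie head to head on mouse chromosome 1. The stretch at their starts is shown because both transcripts were higher in the knockouts. The Trap1 window is shown beside it because that transcript was not. Both windows were thus chosen by result. The windows of Dnaja3, also called higher, and of Grpel1, not called, held none of the motifs searched and are not shown. Each window runs from 250 bases before to 50 bases after a start site, in RefSeq sequence of build GRCm38.p6, written 5′ to 3′ on the strand of the gene. Capitals mark the motifs found.
Hspe1, chr1:55087898-55088197, plus strand: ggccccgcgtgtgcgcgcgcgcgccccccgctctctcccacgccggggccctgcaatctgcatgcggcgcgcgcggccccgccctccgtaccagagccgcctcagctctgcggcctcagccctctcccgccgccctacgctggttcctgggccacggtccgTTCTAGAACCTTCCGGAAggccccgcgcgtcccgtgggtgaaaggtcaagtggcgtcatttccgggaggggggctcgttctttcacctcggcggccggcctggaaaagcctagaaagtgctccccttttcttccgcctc
Trap1, chr16:4077761-4078060, minus strand: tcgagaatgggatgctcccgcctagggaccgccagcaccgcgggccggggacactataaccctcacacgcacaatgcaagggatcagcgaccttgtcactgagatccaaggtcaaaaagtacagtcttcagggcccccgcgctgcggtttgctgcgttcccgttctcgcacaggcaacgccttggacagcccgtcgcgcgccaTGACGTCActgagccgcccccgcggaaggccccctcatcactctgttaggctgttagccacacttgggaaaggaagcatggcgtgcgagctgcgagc

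RefSeq windows were matched for 5 of the 6 members, all but Hspa9, with 2 for Hspd1. In the Hspe1 window the capitals are 4 half-sites of a heat shock element in a row, the binding motif of heat shock factors, which began 89 bases before the Hspe1 start. One Hspd1 start lies 216 bases to the left of that of Hspe1 on the other strand, and its window holds the same stretch read from the opposite strand. The other Hspd1 start lies 95 bases to the right, inside Hspe1, and its window held none of the motifs searched. In the Trap1 window the capitals are a cyclic AMP response element, TGACGTCA, the motif of CREB and ATF factors.

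Both strands were searched for 6 motifs in 32817 windows. The paired half-sites TTCNNGAA and GAANNTTC, which overlap each other inside the longer element, were in 8.51% and 7.86% of windows. The row of 4 half-sites, which is TTCNNGAA, any 2 bases and TTCNNGAA again, was searched after the Hspe1 window had been read. It was in 5 windows (0.0152%), those of Hspd1, Hspe1, Arpc2, Fam149a and Chordc1, and the first pair of these is 1 site. Of the other genes, Arpc2 had a log2 fold change of 0.21 ± 0.30 SE (adjusted p = 0.709, edgeR). Fam149a, with 4 counts over the knockouts and 1 over the controls, and Chordc1, with 25 and 14, were not tested. TGACGTCA was in 1.79%. The C/EBP-ATF composite TGATGNAAN, in 3.96% of windows, and the endoplasmic reticulum stress element, CCAAT and CCACG with 9 bases of any kind between them, in 0.119%, matched in no window of a member, and the Grpel1 and Dnaja3 windows held none of the 6. A match or its absence describes these letters only.

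Libraries held 1062030 to 1227997 gene-assigned counts in knockouts, against 2867067 to 3234729 in controls, of which mtDNA transcripts made up 21.1% to 25.8% in knockouts and 79.5% to 83.5% in controls. Levels are therefore given as CPM, a level relative to the nuclear counts of each library and adjusted by the TMM method. Of nuclear counts, 5 loci that collect ribosomal RNA reads took 80.6% to 84.9%, which left 126339 to 164004 counts in each knockout and 76949 to 109351 in each control for all other nuclear genes. Polrmt itself had 2, 5 and 1 counts in knockouts and 3, 2 and 1 in controls, and a gene-level count does not resolve exon 3, so it checks neither the deletion nor the labels. Knockout 3 stood apart from the other knockouts in chi-square per degree of freedom over tested genes, with loci that collect ribosomal RNA reads included. It was 12.3 against knockout 1 and 7.07 against knockout 2, where all other pairs within a group lay between 1.38 and 2.42. The weight of those loci in this measure was not tested. Without knockout 3 the log2 fold changes of Hspd1, Hspe1, Hspa9 and Dnaja3 were 1.25, 2.91, 1.18 and 0.92 and all were called (edgeR). That of Trap1 was -0.74 and not called, and Grpel1 was not tested. Nuclear transcripts are those that remained with crude mitochondria, so that more RNA in the cell and more of it in the preparation cannot be told apart, nor can more cells of a type and more RNA per cell.

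Transcripts of both chaperonin components and of the matrix Hsp70 were higher in the knockouts, with no overlap between groups. Among all tested genes, 16.8% had every knockout library above every control library. Hspd1 was 2.55-fold, Hspe1 7.42-fold and Hspa9 2.27-fold higher. With Dnaja3, 4 of the 6 members were called higher and 0 lower (edgeR quasi-likelihood test, Benjamini-Hochberg adjusted p under 0.05 over all 2351 genes), where 8.46% of all tested genes were called higher and 6.85% lower. DESeq2 called 3 of the 6 higher, where it called 3.15% of 3208 tested genes higher and 2.03% lower. The median log2 fold change of the 6 was 1.04, against -0.0068 over all tested genes. Hspe1 passed the low-count filter through its knockout libraries alone, and a gene that does so is bound to differ.

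**Figure D1:**
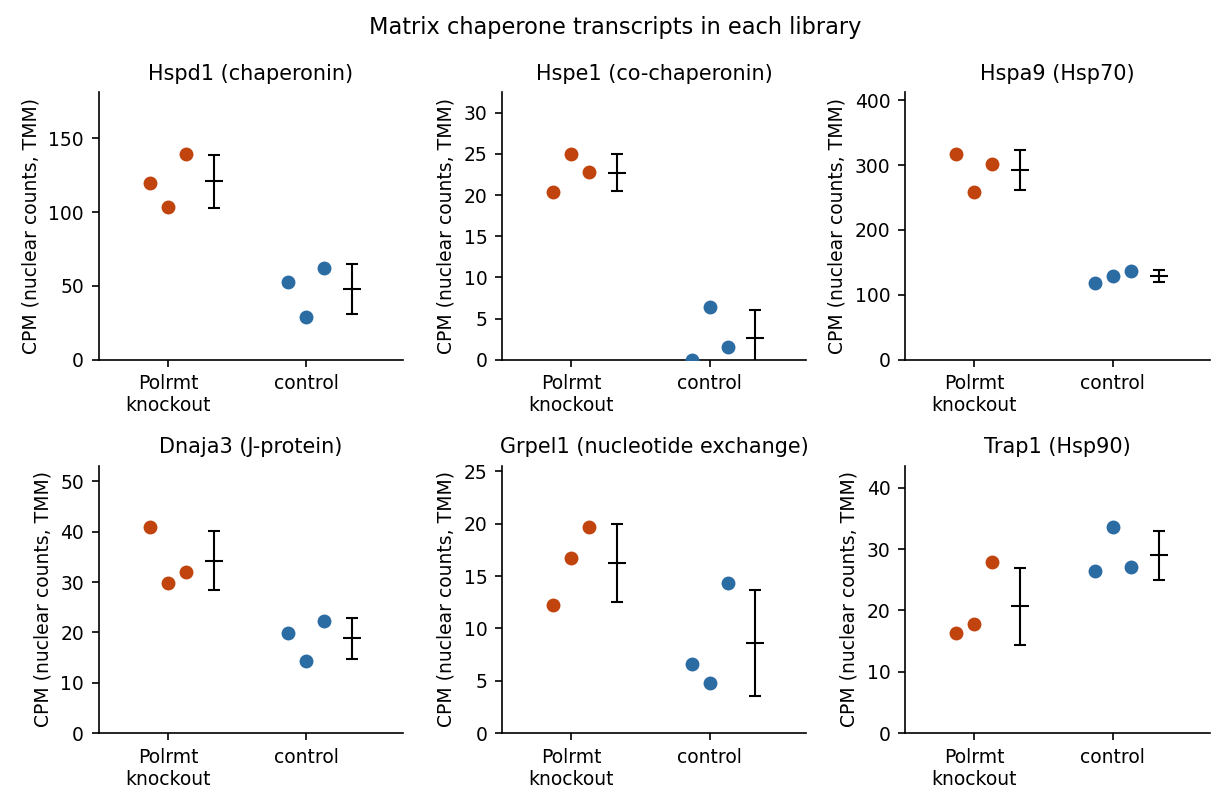
CPM of nuclear counts (vertical axis, from 0, with its own range in each panel) of the 6 matrix chaperones in the 3 Polrmt knockout and 3 control libraries. Points are libraries and bars are the mean ± SD, which for Hspe1 in controls runs below 0 and is clipped. Knockout points lie above all control points for Hspd1, Hspe1, Hspa9 and Dnaja3, as in 16.8% of all tested genes. The groups overlap for Grpel1 and Trap1.

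Hspd1 (ENSMUSG00000025980, chromosome 1, 55077835 to 55088243, minus strand, GRCm38) had 120, 104 and 140 CPM in knockouts, against 52.8, 28.8 and 62.1 CPM in controls. Every knockout library lay above every control library, as was so in 16.8% of all tested genes. The means were 121 ± 18.0 CPM in knockouts and 47.9 ± 17.2 CPM in controls (SD, n = 3 each), with a log2 fold change of 1.35 ± 0.20 SE (adjusted p = 1.67e-07, edgeR). In the authors' deposited table its log2 fold change is 1.40 (false discovery rate 1.13e-07). A processed copy of the gene, Hspd1-ps3 on chromosome 11 with 99.0% identity to an Hspd1 transcript, drew 10, 9 and 8 counts in knockouts and 7, 3 and 7 in controls. The sources used here do not say how reads with several alignments were treated. With the reads of the copy counted as Hspd1, an alternative chosen once the data had been seen, the log2 fold change was 1.20 (adjusted p = 1.36e-06).

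Hspe1 (ENSMUSG00000073676, chromosome 1, 55088132 to 55091307, plus strand) had 15, 21 and 22 counts in knockouts, against 0, 4 and 1 in controls. In CPM these were 20.4, 25.0 and 22.8 in knockouts and 0, 6.39 and 1.59 in controls. The knockouts were close to one another and all above the controls, of which control 1 showed no read, a level that at this depth allows up to 6.60 CPM (3 counts). The log2 fold change was 2.89 ± 0.54 SE (adjusted p = 2.40e-05, edgeR), and without control 2, the library with most of the control reads, it was 4.39. Counted over the groups, the ratio of knockout to control was 7.80 with a 95% Poisson interval from 3.16 to 24.9, which covers counting error only. The gene is not among the 6319 of the authors' deposited table. The annotated spans of Hspe1 and Hspd1 share 112 bases, and reads from this stretch cannot be assigned without strand. The sources used here do not give the strand setting.

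The lid was set against its barrel by the log2 ratio of Hspe1 to Hspd1 counts within each library, with 0.5 added to each count, which needs no scaling. The ratios were -2.51, -2.02 and -2.59 in knockouts, against -5.61, -2.04 and -4.72 in controls. Control 2 lay within the knockout range, and the 5 control reads of Hspe1 set the rest. The means were -2.38 ± 0.31 in knockouts and -4.12 ± 1.86 in controls (SD, n = 3 each). Their difference of 1.75 was smaller than the spread among controls and did not pass a 2-sided exact permutation test (p = 0.3, where 3 against 3 allows no p below 0.1). Without control 2 the difference was 2.79 and without control 1 it was 1.003, so this depth does not show whether the lid moved more than the barrel.

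Hspa9 (ENSMUSG00000024359, chromosome 18, 34937414 to 34954357, minus strand) was the most deeply counted member. It had 317, 259 and 302 CPM in knockouts, against 119, 129 and 137 CPM in controls. The lowest knockout was well above the highest control. The log2 fold change was 1.18 ± 0.14 SE (edgeR adjusted p = 4.56e-10), the smallest error of the 6, and it stayed between 1.08 and 1.28 in all 13 alternative settings run. The authors' deposited table gives 1.22 (false discovery rate 5.39e-13). Its copy Hspa9-ps1, with 90.3% identity, held 2 counts over the knockouts and 2 over the controls.

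Of the partners that drive the Hsp70 cycle, the J-protein passed the test narrowly and the exchange factor did not. Dnaja3 (ENSMUSG00000004069, chromosome 16, 4639989 to 4707695, plus strand) had 40.9, 29.8 and 32.1 CPM in knockouts, against 19.8, 14.4 and 22.3 CPM in controls. The groups did not overlap, as in the 16.8% of all tested genes with every knockout above every control. The log2 fold change was 0.85 ± 0.30 SE (edgeR adjusted p = 0.0397). Its call was lost in 7 of 13 settings, among them DESeq2 (adjusted p = 0.252), leaving out knockout 1 (0.139), control 1 (0.0825) or control 2 (0.230), and no low-count filter (0.138), while the log2 fold change stayed between 0.67 and 1.02. The authors' deposited table gives 0.86 (false discovery rate 0.0589). The annotated span overlaps Vasn on the same strand and Coro7 on the other, which held 9 and 20 counts over the knockouts and 6 and 6 over the controls, against 86 and 32 for Dnaja3. The RefSeq start of Dnaja3 behind its window, at 4684070, lies beyond both.

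Grpel1 (ENSMUSG00000029198, chromosome 5, 36464998 to 36474080, plus strand) had 12.3, 16.7 and 19.7 CPM in knockouts, against 6.60, 4.80 and 14.3 CPM in controls. Control 3 lay within the knockout range. Its log2 fold change of 0.90 ± 0.47 SE did not pass the test (edgeR adjusted p = 0.192), and it was 1.55 without control 3 (adjusted p = 0.0683) and 0.56 without control 2. With 42 counts over the knockouts and 15 over the controls, the ratio was 1.88 with a 95% Poisson interval from 1.02 to 3.66. The authors' deposited table gives 0.92 (false discovery rate 0.242). Its annotated span overlaps that of Tada2b on the other strand, which had 11 counts over the knockouts and 8 over the controls.

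Trap1, the matrix Hsp90, was the one member whose fitted change lay below 0. It (ENSMUSG00000005981, chromosome 16, 4039971 to 4077827, minus strand) had 16.3, 17.9 and 27.9 CPM in knockouts, against 26.4, 33.6 and 27.1 CPM in controls. Knockout 3 lay among the controls, and the other knockouts lay below all of them. The log2 fold change was -0.46 ± 0.30 SE (edgeR adjusted p = 0.323). In 13 alternatives it lay between -0.74 and -0.31 and passed in none, with adjusted p between 0.160 and 0.725. The count ratio was 0.727 with a 95% Poisson interval from 0.485 to 1.09. That interval lies below those of Hspd1 (2.01 to 3.33) and Hspa9 (1.94 to 2.64), although the difference between members was not tested. The authors' deposited table gives -0.45 (false discovery rate 0.502). Dnase1, whose span overlaps that of Trap1 on the other strand, had 0 counts in every library.

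**Figure D2:**
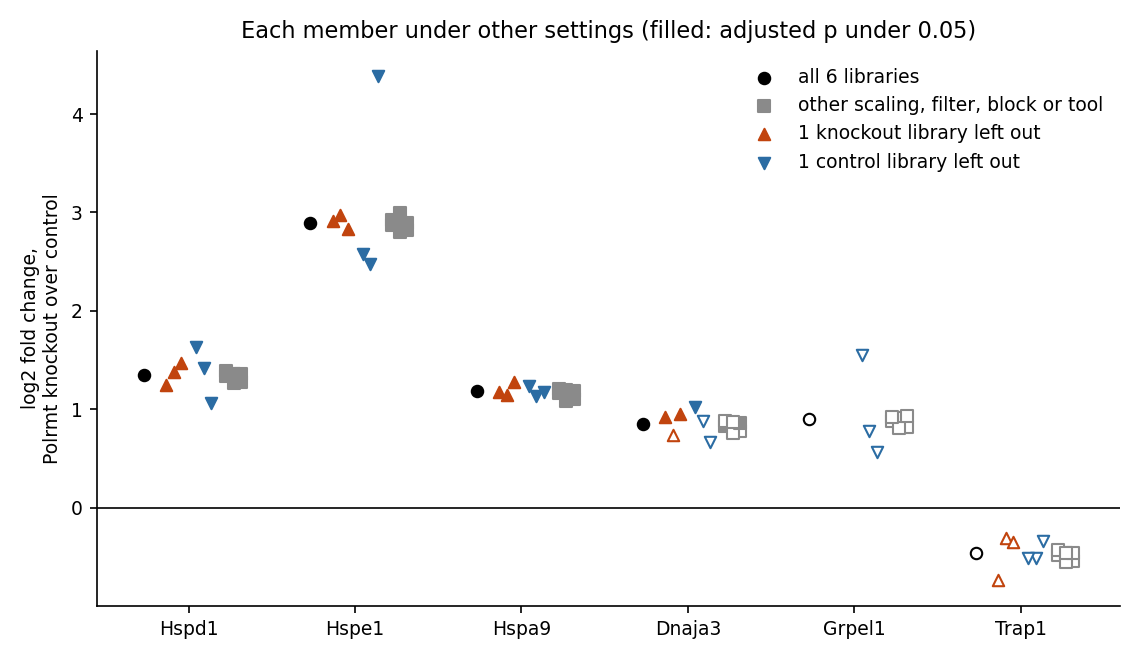
Log2 fold change of Polrmt knockout over control (vertical axis) for each of the 6 members with all libraries, with 1 library left out, and with other scalings, filters, the replicate block or DESeq2. Filled marks have an adjusted p under 0.05. Hspd1, Hspe1 and Hspa9 are filled in all settings, Dnaja3 in some, Grpel1 and Trap1 in none, and the Hspe1 value of 4.39 is the one without control 2.

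Levels of different genes are compared per kilobase of annotated exon (CPM per kb). Hspa9 was the highest member, at 67.9 ± 7.08 in knockouts and 29.8 ± 2.11 in controls (SD, n = 3 each). Hspd1 followed with 45.8 ± 6.82 CPM per kb in knockouts and 18.1 ± 6.50 in controls. Hspe1 came next in the knockouts at 15.4 ± 1.56 CPM per kb, and was last in the controls at 1.81 ± 2.26. Trap1 was at 8.05 ± 2.45 CPM per kb in knockouts and 11.3 ± 1.54 in controls, where it came right after Hspd1. Dnaja3 was at 8.75 ± 1.50 CPM per kb in knockouts and 4.81 ± 1.03 in controls, and Grpel1 at 4.59 ± 1.05 in knockouts and 2.43 ± 1.43 in controls. Dnaja3 and Trap1 did not differ beyond their spread in the knockouts, nor did Grpel1 and Hspe1 in the controls. Exon lengths join all annotated transcripts of a gene, so that a gene with long alternative exons reads low.

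Other factors that serve the same chaperones were mostly too lowly counted to test. Of 10 co-chaperones and folding factors, edgeR tested 2 and called 0, with 0 at an unadjusted p under 0.05. DESeq2 tested 3 and called 0. Those tested by edgeR were Ppif, the cyclophilin of the matrix, and Tomm70a, an import receptor of the outer membrane. Their log2 fold changes were 0.24 ± 0.31 SE and 0.28 ± 0.32 SE. Grpel2, the second nucleotide exchange factor of the matrix Hsp70, had 28 counts over the knockouts and 6 over the controls. It did not pass the low-count filter. Dnlz, which keeps Hspa9 soluble, had 9 counts over the knockouts and 6 over the controls.

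Quality control proteases degrade what chaperones fail to fold. They were listed together with a disaggregase, peptidases that process imported proteins (Pmpca, Pmpcb) and prohibitins. Of this list of 15, 7 were tested, 2 called higher and 0 lower (edgeR), where 8.46% of all tested genes were called higher. Lonp1, the main ATP-dependent protease of the matrix, had 124 ± 11.1 CPM in knockouts and 24.1 ± 4.50 CPM in controls (SD, n = 3 each), with a log2 difference of 2.32 ± 0.21 SE (adjusted p = 4.00e-15, edgeR). Afg3l2, a subunit of the m-AAA protease of the inner membrane, rose by 0.75 ± 0.24 SE on the log2 scale (adjusted p = 0.0235, edgeR). Its call was lost in 6 of 13 settings, among them DESeq2 and leaving out knockout 1 or control 2. All 7 fitted changes lay above 0, with a median of 0.66. Clpp, the protease best known from the unfolded protein response of worm mitochondria, was not tested, with 3, 8 and 5 counts in knockouts and 1, 0 and 1 in controls. Its ratio was 5.38 with a 95% Poisson interval from 1.27 to 48.2. The number called was 1 with DESeq2, with no scaling factor, with no low-count filter and without knockout 1 or control 2, and 4 without knockout 2 or control 3. In these settings 7 to 15 were tested, 11 of them by DESeq2.

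Regulators of stress responses were mostly below the filter, and 2 of 16 were tested. Atf5, a transcription factor tied to the mitochondrial stress response, was called higher, with 36.9 ± 7.81 CPM in knockouts and 12.6 ± 5.35 CPM in controls (SD, n = 3 each). The difference was 1.55 ± 0.33 SE on the log2 scale (adjusted p = 2.80e-04, edgeR). It reached the cutoff of the low-count filter in 3 knockout libraries and 1 control library, so that it passed through the group in which it was high. The other, Dele1, a mitochondrial sensor of stress, was at -0.33 ± 0.33 SE (log2). Atf4, the effector of the integrated stress response, was not tested, with 30, 12 and 25 counts in knockouts and 3, 3 and 5 in controls. All its knockout libraries lay above its controls in CPM, as was so in 16.8% of tested genes. The ratio for Atf4 was 4.10 with a 95% Poisson interval from 2.15 to 8.60. Hsf1, the factor that binds heat shock elements, had 13 counts over the knockouts and 5 over the controls. The number called was 3 of 4 without any 1 of the controls, 2 of 3 without knockout 2 or with DESeq2, and 4 of 6 where filter and scaling used total library sizes. Genes that enter such settings through the knockout libraries, such as Atf4, which reached the cutoff in 2 knockout and 0 control libraries, are bound to differ. With no low-count filter, 4 of 15 were called.

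The chaperones of the matrix have relatives in the cytosol and in the endoplasmic reticulum, which were compared by family. Of 23 listed cytosolic heat shock proteins, edgeR tested 14 and called 10 higher and 0 lower. DESeq2 tested 17 and called 6 higher. Over all tested genes, edgeR called 8.46% higher and DESeq2 3.15%. The median log2 fold change of the 14 tested by edgeR was 0.85. The 4 of these not called were Dnaja4 (0.85 ± 0.36 SE), Hspb8 (0.61 ± 0.23), Dnajb4 (0.32 ± 0.36) and Bag3 (0.11 ± 0.25). The rest of the list was below the low-count filter. Their counts over knockouts and controls were 1 and 0 (Hspa1a), 2 and 4 (Hspa1b), 2 and 3 (Hspa2), and 6 and 9 (Dnajb1). Those of Dnaja1, Dnajb6, Dnajb5, Bag1 and Hsph1 were 18 and 17, 20 and 11, 30 and 19, 42 and 15, and 46 and 16. Hspa8, the constitutive Hsp70 of the cytosol, had 148 ± 9.06 CPM in knockouts and 82.3 ± 3.74 CPM in controls (SD, n = 3 each), a log2 difference of 0.85 ± 0.16 SE (adjusted p = 3.30e-05, edgeR). Among the Hsp90 proteins, cytosolic Hsp90aa1 rose by 2.04 ± 0.32 SE and Hsp90ab1 by 0.71 ± 0.14 SE on the log2 scale, whereas Trap1 did not pass the test. The small heat shock proteins Hspb1 (2.35 ± 0.40 SE) and Hspb6 (1.36 ± 0.20 SE), which are abundant in muscle, were also called higher. Hsp90aa1 and Hspb1, like Hspe1, passed the low-count filter through the knockout libraries alone.

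The cytosolic chaperonin CCT, the counterpart of Hspd1, was called higher in 3 of its 8 subunits and lower in none (edgeR). Over all tested genes, 8.46% were called higher. All 8 subunits had fitted changes above 0, with a median of 0.74. Cct2, Cct3 and Cct5 had log2 fold changes of 0.90 ± 0.27, 0.99 ± 0.31 and 0.97 ± 0.32 SE, and Tcp1 one of 0.43 ± 0.26 SE. DESeq2 called 0 of the 8, as did edgeR without knockout 1 or without control 2, and 1 was called without control 3, with no scaling factor or with no low-count filter. At an unadjusted p under 0.05, 6 of the 8 were higher, where 14.5% of all tested genes were higher and 13.8% lower. Chaperones of the endoplasmic reticulum showed no call, with 8 members tested by edgeR and 9 by DESeq2. With edgeR, 1 was higher and 1 lower at an unadjusted p under 0.05, which is near the share of all tested genes. Their median log2 fold change was -0.04. Hspa5, the Hsp70 of that compartment, was at 0.40 ± 0.17 SE on the log2 scale (adjusted p = 0.103, edgeR). Hsp90b1, its Hsp90, was at -0.005 ± 0.192 SE, a value whose sign changed with the libraries left out. No test of one compartment against another was made.

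**Figure D3:**
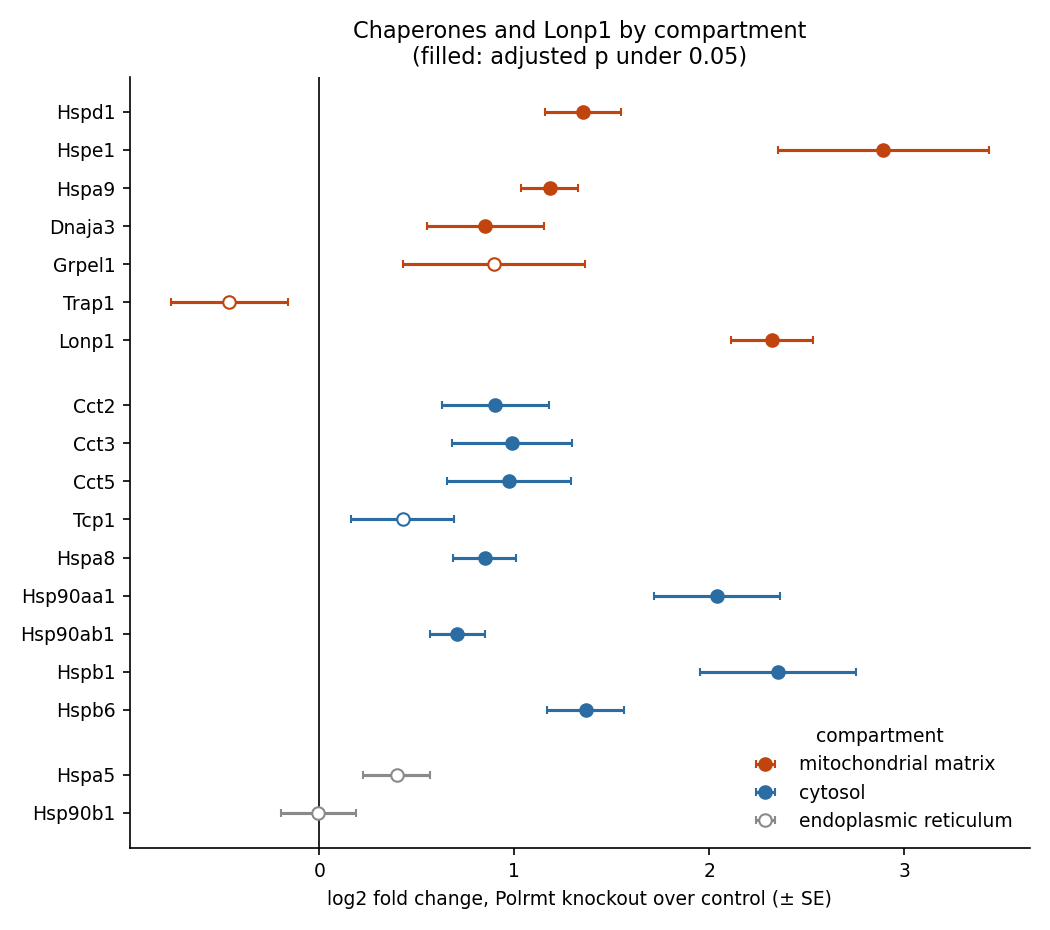
Log2 fold change of Polrmt knockout over control (horizontal axis, ± SE) for the matrix chaperones and Lonp1, for cytosolic chaperones and for those of the endoplasmic reticulum. Filled points have an edgeR adjusted p under 0.05. Cct2, Cct3, Cct5, Hsp90aa1, Hspb1 and Hspb6 are shown because they were called, so their fill was fixed in advance. Hspa8, Hsp90ab1, Tcp1, Hspa5 and Hsp90b1 are shown whatever their result, and uncalled cytosolic genes other than Tcp1 are left out. Hspe1 lies farthest right at 2.89 and Trap1 farthest left at -0.46, unfilled, and neither point of the endoplasmic reticulum is filled.

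Enzymes of the TCA cycle, most of which lie in the matrix too, gave 1 call among 16 tested members, with a median log2 fold change of 0.17. This 1 call is near the share of all tested genes, of which 8.46% were called higher (edgeR). That call was Idh3a, a subunit of isocitrate dehydrogenase, with 0.50 ± 0.17 SE on the log2 scale (edgeR adjusted p = 0.0336). It was lost in 8 of 13 settings, among them DESeq2 and leaving out knockout 2, knockout 3, control 1 or control 2. Ogdh, a subunit of oxoglutarate dehydrogenase, was at 0.23 ± 0.13 SE and did not pass.

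**Figure D4:**
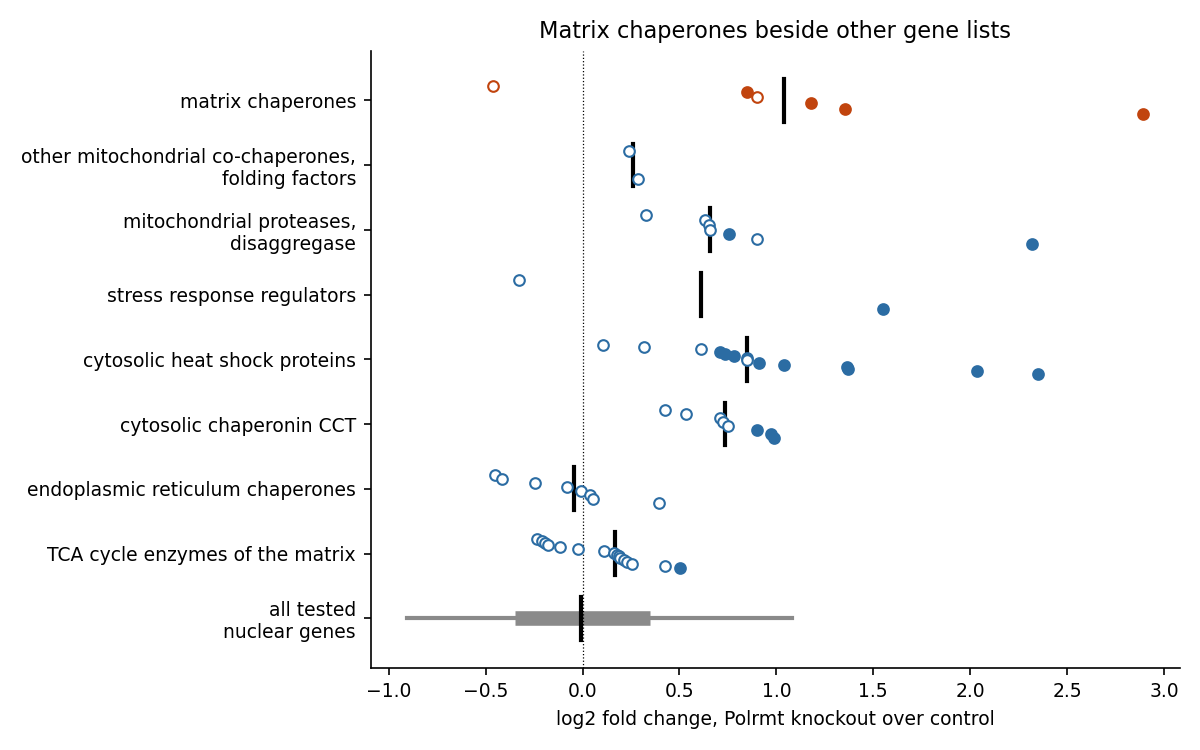
Log2 fold change of Polrmt knockout over control (horizontal axis) for each tested gene of the matrix chaperones and of the other gene lists, filled where the edgeR adjusted p is under 0.05. Black bars are medians, and the lowest row gives all tested nuclear genes by their median, quartiles (-0.35 to 0.35) and 5th to 95th percentiles (-0.90 to 1.08). Medians lie at 1.04 for the matrix chaperones, 0.85 for cytosolic heat shock proteins, 0.17 for TCA cycle enzymes and -0.04 for chaperones of the endoplasmic reticulum.

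The genes whose levels over the 6 libraries were most like those of Hspa9 were Ctsl, a lysosomal protease (Pearson r 0.992 of log2 CPM), Hspb7, a small heat shock protein of heart muscle (0.989), and Enah, an actin regulator (0.989). Those most like Hspd1 were Txnip, the thioredoxin-interacting protein (0.991), Atp5f1, a subunit of ATP synthase (0.990), and Idh3a (0.984). The libraries form 2 groups, so that any gene with a steady difference between them scores high, and of 1125 candidate genes 7.82% had an r above 0.9 with Hspa9 and 4.89% with Hspd1.

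Markers of cell types were measured beside these results, where edgeR called 8.46% of all tested genes higher and 6.85% lower. All 11 cardiomyocyte markers were tested, with 1 called higher and 5 lower, and they summed to 13745 to 14838 CPM in knockouts against 16044 to 17908 CPM in controls. Macrophage markers summed to 51.8 to 78.6 CPM in knockouts against 141 to 213 CPM in controls, and 3 of 3 tested were called lower by edgeR and 1 by DESeq2. Smooth muscle and pericyte markers summed to 234 to 328 CPM in knockouts against 353 to 401 CPM in controls (2 of 5 tested called lower by edgeR, 1 by DESeq2). Endothelial markers summed to 490 to 621 CPM in knockouts against 630 to 807 CPM in controls (0 of 9 called by edgeR, 3 lower at an unadjusted p under 0.05 where 13.8% of all tested genes were, 0 by DESeq2). Fibroblast markers overlapped between groups, at 1609 to 1833 CPM in knockouts and 1821 to 1979 CPM in controls (1 of 8 called lower), as did erythroid markers, at 158 to 289 CPM in knockouts and 147 to 321 CPM in controls. No marker was at 0 in all libraries. The 6 chaperones summed to 452 to 544 CPM in knockouts against 217 to 264 CPM in controls, and the part of the cell makeup in this was not tested.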

How the data were processed

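Per the labels' protocols, RNA of crude heart mitochondria was isolated with the miRNeasy mini kit, made into Illumina TruSeq libraries and read in pairs on a MiSeq. Tools named in the submitters' processing notes were edgeR 3.11.2 in R 3.2.0, featureCounts 1.3.5-p4 and HISAT 0.1.6, with build GRCm38. The authors deposited raw counts per gene, a normalised and rounded version not used here, and a table of their own comparison, which per the file headers gives log2 fold change, log2 CPM and false discovery rate, beside the p-value and its likelihood ratio score. Strand setting and annotation release: not given in the sources used here.

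From the counts, the 35 mtDNA rows were left out, and the other 39142 were filtered (filterByExpr, minimum count 10, minimum total 15, on nuclear library sizes), scaled by TMM and tested with edgeR 4.0.16 (robust quasi-likelihood fit, no covariate, 2-sided) in R 4.3.3. The SE is that implied by the F statistic. Filtering and scaling on total counts, most of which are mtDNA counts in controls, was kept as an alternative. Symbols, spans and exon lengths came from GENCODE M21 (GRCm38), which named 37570 nuclear rows. DESeq2 1.42.0 was an alternative. The procedure was tested on simulated data. It called 67.4% of genes raised by a log2 fold change of 1 and 55.6% of those lowered by 1. At 2 and -2 it called 98.0% each, and it called 3 of 2000 unchanged genes. Changes of about 1 or less can therefore be missed.

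Members and lists were chosen with earlier results of these data known. Named by rule were all members, up to 3 called genes per list, the family counterparts Hspa8, Hspa5, Hsp90ab1, Hsp90b1 and Tcp1, and Lonp1, Clpp and Atf4, with the genes most correlated with the most abundant members, Hspa9 and Hspd1. Other named genes were chosen after their values were seen. Replicates differed by more than sampling noise (chi-square per degree of freedom 1.38 to 12.3, ribosomal RNA loci included, highest in the pairs with knockout 3). A nuclear gene at 3 counts lies at 3.10 to 4.09 CPM in knockouts and 4.77 to 6.60 CPM in controls. Poisson intervals compare summed counts scaled by effective library size and cover counting error only.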

Additional observations from a re-analysis of the deposited data

How the results depend on the processing

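Over 13 alternatives, Hspd1, Hspe1 and Hspa9 kept their direction and their call. Hspe1 passed the low-count filter through its knockout libraries alone, so its kept call adds no support where that filter was used. With no low-count filter its adjusted p was 9.75e-06 (edgeR). Grpel1 (9 alternatives that tested it) and Trap1 stayed uncalled with the same sign. The number of members called was 3 or 4, the fourth being Dnaja3. The number of nuclear genes called, 360, was 166 with DESeq2 and 257 to 342 with 1 library left out. Of the 360 calls 55.3% were higher, against 44.5% with no factor beyond the nuclear library size. The Hspe1 to Hspd1 difference was 1.28 with a pseudocount of 1 and 1.003 to 2.79 with 1 library left out (exact permutation p between 0.1 and 0.4, where 2 against 3 allows no p below 0.1). The fitted change of Hsp90b1 turned to 0.028 without the low-count filter, 0.10 without knockout 1, 0.075 without knockout 2 and 0.11 without control 1, ranged from -0.16 to 0.11 with 1 library left out, and passed the test in none. The cause was not tested. Deviations from group means correlated at 0.00078, 0.017 and 0.065 between same-numbered knockout and control libraries, and at -0.045 to 0.025 between the others. Counting noise at this depth can hide pairing, so these values do not exclude it. The labels do not state pairing, and the numbers are not taken to pair mice. With the replicate block 365 genes were called, and no call changed among the members, Lonp1, Afg3l2, Atf5, Idh3a and the cytosolic and endoplasmic reticulum chaperones named with a test. The exact paired sign-flip permutation test of the Hspe1 to Hspd1 ratio gave the same difference of 1.75 (p = 0.25, the smallest that 3 pairs allow). Depth limits Hspe1, Grpel1, Clpp and most co-chaperones.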
